A study of Setaria viridis with 15 samples.

Results

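Shoots of Setaria viridis grown beside the bacterial isolate AI2.2-A were set directly against shoots grown beside the isolate MTS P5D6. The comparison was defined by the treatment labels alone and took 4 libraries of each isolate, 8 of the 15 libraries of the series, with no control library in the test. Setaria viridis is a small C4 grass used as a model for maize, sorghum and sugarcane. All plants were wild type. In each sealed plate 2 seedlings, 5 days old when they were moved, grew beside a small dish that had received 20 µL of the isolate, so that bacteria and plants shared only the air. Shoots were taken after 7 days under a 12 h photoperiod. The mock control (4 libraries) had the same dish without bacteria, and the third isolate of the series, CTB P6B8 (3 libraries), was handled in the same way. The isolates are named only by these codes in the sources used here. Libraries were labelled as biological replicates, and how many plates went into a library was not stated.

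Bacteria release small volatile molecules and carbon dioxide, and in a sealed plate they also share the air with the plant. Growth in a grass seedling rests on dividing cells at the leaf base, on expansins and other enzymes that loosen the primary wall, and later on the cellulose, lignin and peroxidases of the secondary wall. Heat shock proteins, late embryogenesis abundant proteins and factors of the NAC and WRKY families are commonly raised under stress or in ageing tissue. These are background statements, and the labels give no growth or physiological measurement to set beside the transcripts.

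The libraries held 18222557 to 23919167 counts with AI2.2-A and 16755755 to 19453085 counts with MTS P5D6. After the filter on low counts 19601 genes were tested with edgeR's quasi-likelihood test. Those with an adjusted p (Benjamini-Hochberg) under 0.05 are termed called. Values of single libraries are given in CPM, in the order of replicates 1 to 4. In a principal component analysis of log2 CPM (counts scaled to the library size), the first component held 61.45% of the variance and separated the isolates. AI2.2-A replicates 1, 2 and 3 scored 55.3, 44.2 and 46.3 on it, while AI2.2-A replicate 4 scored 20.2, nearer to the MTS P5D6 libraries, which lay between -48.6 and -35.0. Because AI2.2-A replicate 4 scored lowest of its group on this component, counts of all called genes and of several lists are also given without it. Those of HSP70 and other chaperones and of NAC factors are not. The choice of this library rests on the component alone. When limma-voom weighted the libraries by quality, AI2.2-A replicate 2 had the lowest weight (0.556, against 0.748 for AI2.2-A replicate 4).

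**Figure D1:**
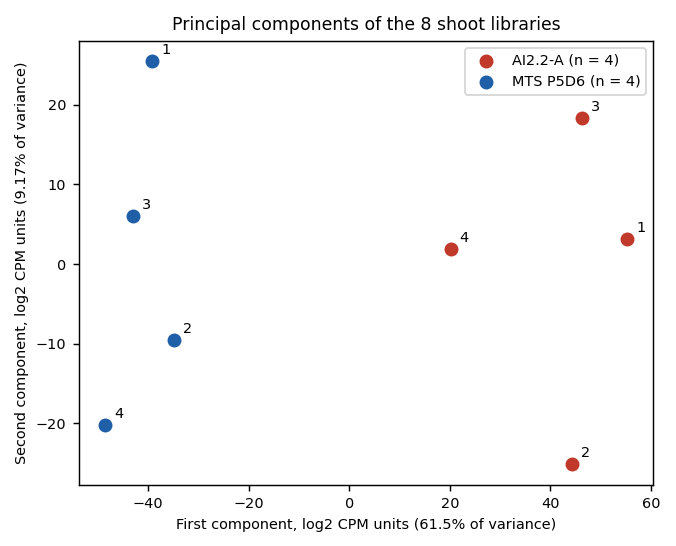
Scores of the 8 libraries on the first and second principal component of log2 CPM (points: libraries, numbered by replicate). The first component (61.5% of the variance) puts the 4 AI2.2-A libraries at 20.2 to 55.3 and the 4 MTS P5D6 libraries at -48.6 to -35.0, with AI2.2-A replicate 4 nearest to the other isolate.

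Most called expansin, cell cycle, lipid transfer and peroxidase genes were higher with AI2.2-A, and most called heat shock, chaperone and NAC factor genes were higher with MTS P5D6. Of the 19601 genes tested, 7909 were called (40.3%), 4111 higher with AI2.2-A (21.0%) and 3798 higher with MTS P5D6 (19.4%). Most of these differences were small: the median size among called genes was 0.60 on the log2 scale, and 3820 of them were under 1.5-fold. At least 2-fold differences were more often in the direction of AI2.2-A, with 1278 genes higher (6.52%) against 588 lower (3.0%), and at least 4-fold differences with 153 against 59. The 4 libraries of one isolate lay wholly above the 4 of the other for 7421 genes (37.9%). Without AI2.2-A replicate 4, 8109 genes were called, 7312 of them among the 7909, and the 2-fold counts were 1535 higher and 730 lower. Scaling by total counts alone, in place of the trimmed mean of M-values (TMM), moved the median of all genes from 0.01 to 0.11 on the log2 scale and the share of calls that were higher with AI2.2-A from 52.0% to 66.8%, so small differences depended on the scaling. Of 9041 genes called in the authors' deposited table among the 19565 with a p-value there, 7711 were called here as well, all with the same sign.

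Gene descriptions were sorted into 51 lists by name, and each list is described by its counts of called members beside the background of 21.0% higher and 19.4% lower. More members were higher than lower with AI2.2-A in 33 lists, lower than higher in 17, and the counts were equal in 1. Expansins, class III peroxidases, lipid transfer and wax genes, cell cycle genes, photosystem genes, low-oxygen genes, cellulose synthases, pectin enzymes and histones had the largest shares higher with AI2.2-A. Clock genes, small heat shock proteins and heat factors, HSP70 and other chaperones, NAC factors, abscisic acid genes and calcium sensors had large shares in the other direction.

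**Figure D2:**
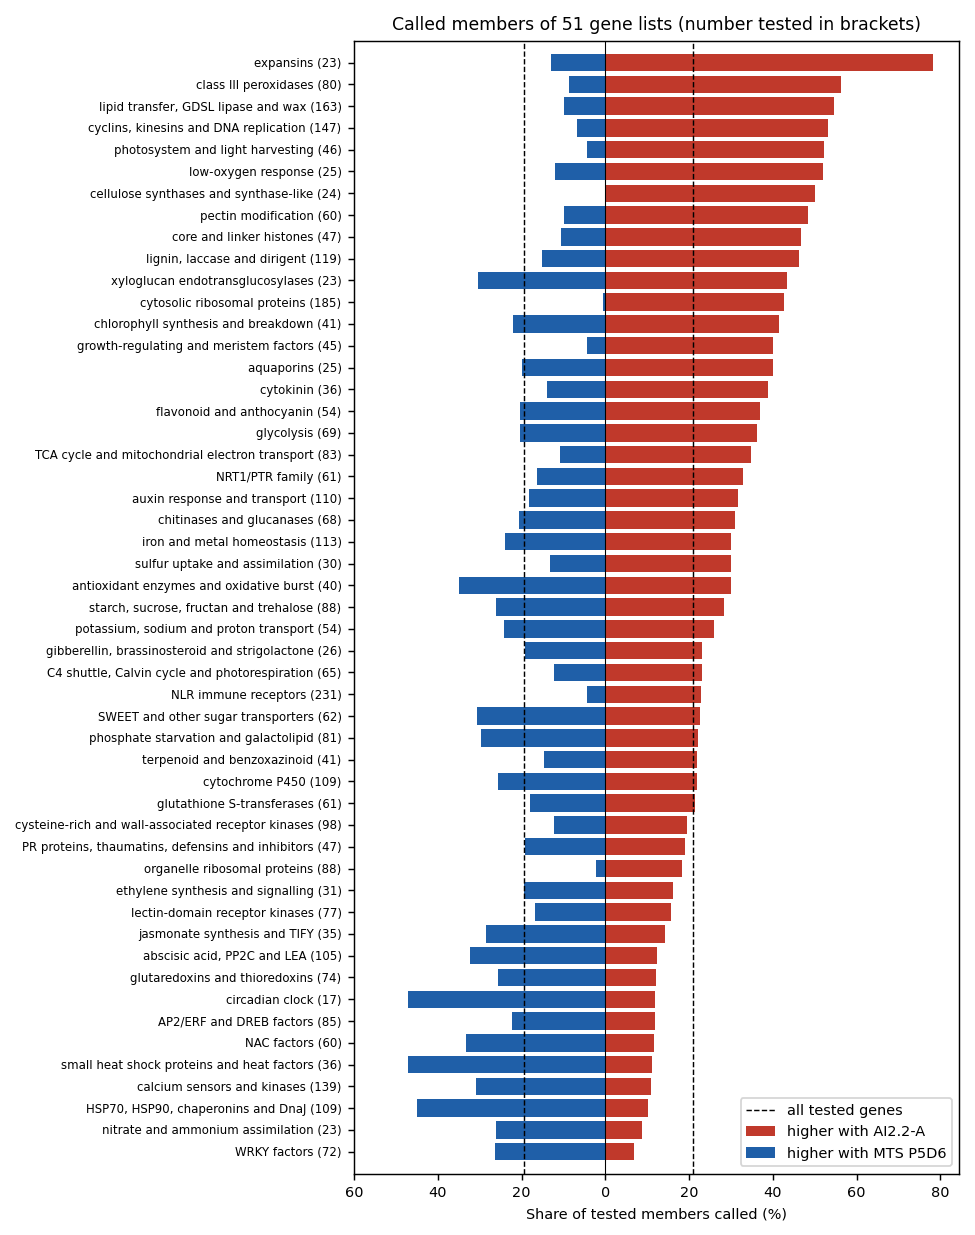
Share of the tested members of each of 51 gene lists called higher with AI2.2-A (right, red) or higher with MTS P5D6 (left, blue), in percent, with the number tested in brackets. Dashed lines mark the shares over all tested genes, 21.0% and 19.4%; expansins reach 78.3% on the right, and clock genes and small heat shock proteins reach 47.1% and 47.2% on the left.

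The 20 genes described next differed most in each direction among called genes with a mean log2 CPM of at least 1, no overlap between isolates and an informative description, so a less abundant gene may differ more. The 10 higher with AI2.2-A included genes of the cell wall and of xylem. An endo-1,4-beta-xylanase 1-like gene (LOC117840455; xylanases cut the xylan of grass walls) had 6.78, 4.18, 5.36 and 3.69 CPM with AI2.2-A and 0.603, 0.815, 0.309 and 0.0616 CPM with MTS P5D6. A cysteine protease XCP2-like gene (LOC117855233; in Arabidopsis XCP2 works in the dying xylem cell) had 10.3, 6.38, 6.55 and 4.32 CPM with AI2.2-A and 0.986, 1.03, 0.825 and 0.431 CPM with MTS P5D6. The laccase-4-like gene LOC117857126, whose Arabidopsis counterpart polymerises lignin, had 6.03, 3.95, 2.29 and 2.88 CPM with AI2.2-A and 0.548, 0.380, 0.567 and 0.308 CPM with MTS P5D6. The selection rule required every AI2.2-A library to be above every MTS P5D6 library. The log2 fold changes of these 3 genes were 3.45 ± 0.41, 3.06 ± 0.32 and 3.05 ± 0.36 (SE; edgeR adjusted p 0.000191, 0.000108 and 0.000187). Control plants had 4.08 ± 0.436 CPM, 2.93 ± 0.343 CPM and 2.22 ± 0.952 CPM (SD, n = 4), so that, against control on the log2 scale, MTS P5D6 plants stood at -3.15 ± 0.36, -1.81 ± 0.34 and -2.25 ± 0.41 and AI2.2-A plants at 0.30 ± 0.27, 1.25 ± 0.28 and 0.80 ± 0.32. The first of these AI2.2-A differences from control was not called (edgeR adjusted p 0.382).

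Genes with a BURP domain, a plant-specific secreted domain, appeared 3 times among the 10. A RAFTIN 1A-like gene (LOC117836289) had 42.3, 31.8, 37.5 and 34.8 CPM with AI2.2-A and 2.85, 4.89, 4.74 and 3.70 CPM with MTS P5D6, a log2 fold change of 3.17 ± 0.16 (edgeR adjusted p 4.63e-06). The other RAFTIN 1A-like gene (LOC117860011) had 8.54, 5.74, 5.83 and 2.88 CPM with AI2.2-A and 0.274, 0.869, 0.773 and 0.493 CPM with MTS P5D6, and the BURP domain-containing protein 13-like gene (LOC117847602) had 19.4, 18.1, 23.5 and 10.5 CPM with AI2.2-A and 2.68, 2.83, 2.01 and 0.493 CPM with MTS P5D6. The rule allowed no overlap between isolates, and AI2.2-A replicate 4 was the lowest of its group for LOC117860011 and LOC117847602. Their log2 fold changes were 3.24 and 3.14. The 3-aminomethylindole N-methyltransferase-like gene (LOC117867045), named for an enzyme of gramine synthesis in barley, had 60.7, 65.1, 35.0 and 26.1 CPM with AI2.2-A and 2.36, 5.98, 3.04 and 4.68 CPM with MTS P5D6, a log2 fold change of 3.55 ± 0.35. The remaining genes of the 10 encode a nepenthesin-2-like aspartic proteinase (LOC117861901, 3.46), a beta-glucosidase 29-like protein (LOC117842554, 3.3) and a non-classical arabinogalactan protein 31-like protein (LOC117847784, 3.17).

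The 10 genes higher with MTS P5D6 under the same rule included stress genes, a mitochondrial dehydrogenase and a clock factor. The external alternative NAD(P)H-ubiquinone oxidoreductase B3 (LOC117855270), which feeds electrons into the mitochondrial chain without pumping protons, had 0.638, 1.01, 0.416 and 2.02 CPM with AI2.2-A and 6.24, 14, 4.07 and 4.81 CPM with MTS P5D6. The 16.9 kDa class I heat shock protein 1 (LOC117857321), a small chaperone that holds unfolded proteins, had 0.718, 1.88, 0.988 and 0.864 CPM with AI2.2-A and 8.60, 4.94, 10.1 and 6.10 CPM with MTS P5D6. The abscisic stress-ripening protein 1-like gene (LOC117859125), of a family raised by drought and sugar in several plants, had 5.39, 10.0, 5.2 and 11.9 CPM with AI2.2-A and 43.3, 29.0, 41.7 and 45.3 CPM with MTS P5D6. The rule required every MTS P5D6 library to be above every AI2.2-A library. The log2 fold changes of these 3 genes were -2.83 ± 0.49, -2.74 ± 0.32 and -2.30 ± 0.25 (edgeR adjusted p 0.00127, 0.000175 and 0.000141). Control plants had 0.0598 ± 0.0776 CPM, 0.656 ± 0.402 CPM and 2.66 ± 0.315 CPM (SD, n = 4). These levels lay below the AI2.2-A mean in each case, though for the heat shock gene this difference was not called (edgeR adjusted p 0.168). The others were the PCL1-like clock factor (LOC117855098, -2.35), an E3 ubiquitin-protein ligase CIP8 (LOC117843102, -2.53), a group 3 late embryogenesis abundant protein-like gene (LOC117847822, -2.43) and an ABC transporter A family member 8-like gene (LOC117844918, -2.39). A cold-regulated protein 27-like gene (LOC117835063, -2.32), a dynamin-related protein 5A-like gene (LOC117854512, -2.30) and a SAR1A-like GTPase of vesicle budding (LOC117833932, -2.28) completed the 10.

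**Figure D3:**
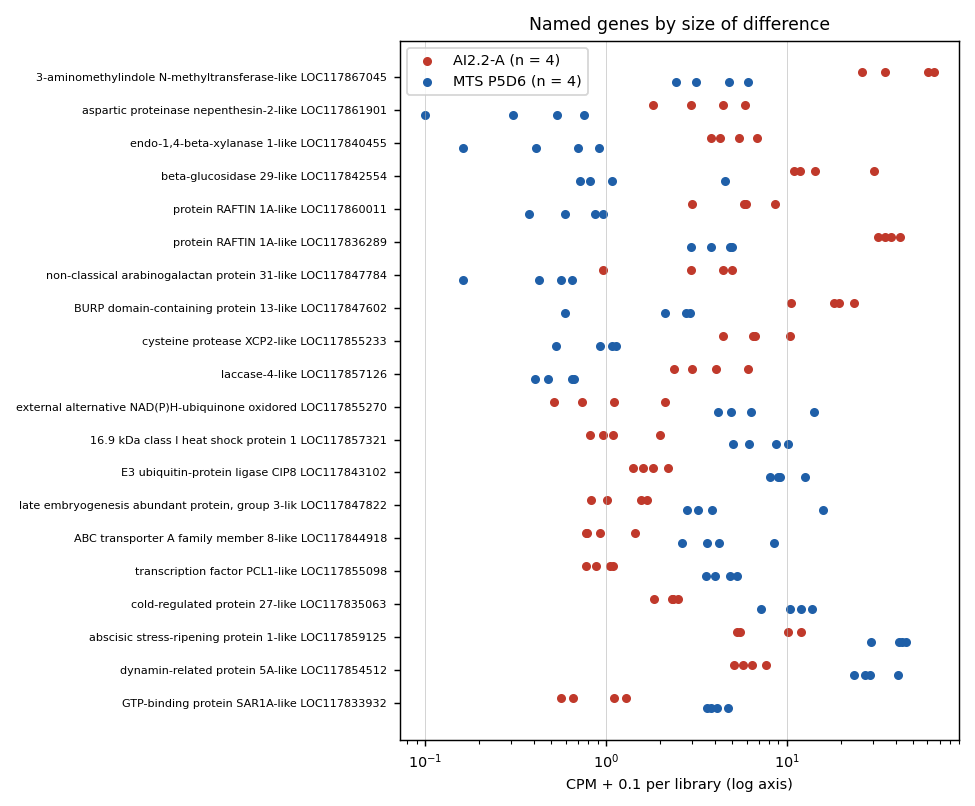
CPM plus 0.1 in each library (log axis; points: libraries, red AI2.2-A, blue MTS P5D6, n = 4 each) for the 10 genes that differed most in each direction among those with a mean log2 CPM of at least 1, an informative description and no overlap. The topmost, LOC117867045, lies at 26.1 to 65.1 CPM with AI2.2-A and 2.36 to 5.98 CPM with MTS P5D6.

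Of the 51 lists, the expansins had the largest median difference. Of 23 tested expansins, which loosen the wall as cells enlarge, 18 were higher with AI2.2-A and 3 lower (19 and 3 without AI2.2-A replicate 4), and their median log2 fold change was 1.45 against 0.01 over all tested genes. The median stood at 0.35 against control for AI2.2-A and at -0.97 for MTS P5D6. The expansin-B3-like gene LOC117836062 had 36.9, 31.0, 21.2 and 19.7 CPM with AI2.2-A and 6.46, 6.19, 5.57 and 5.12 CPM with MTS P5D6, with no overlap, a log2 fold change of 2.22 ± 0.20 (edgeR adjusted p 6.9e-05) and 32.2 ± 3.19 CPM in control (SD, n = 4). A second expansin-B3-like gene (LOC117835120, chosen after its values were seen) went the same way with 45.1 ± 14 against 9.35 ± 1.42 CPM (SD, n = 4 each). Xyloglucan endotransglucosylases, which cut and rejoin the xyloglucan tethers of the wall, were split, with 10 higher and 7 lower of 23. Protein 31-like (LOC117846640) was higher by 2.02 ± 0.22 on the log2 scale (edgeR adjusted p 0.000142). Pectin enzymes were higher in 29 and lower in 6 of 60, among them the probable pectate lyase 8 (LOC117865005, 1.08 ± 0.09).

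Called cellulose synthase genes were all higher with AI2.2-A. Of 24 tested cellulose synthases and synthase-like genes 12 were higher and none lower (median 0.46). The catalytic subunits 4, 7 and 9 carry names that in rice belong to the secondary-wall complex. Subunit 7 (LOC117836359) had 40.8, 38.6, 39.7 and 33.7 CPM with AI2.2-A and 20.8, 23.6, 18.5 and 17.8 CPM with MTS P5D6, without overlap, a log2 fold change of 0.92 ± 0.10 (edgeR adjusted p 0.000154). Subunits 4 (LOC117857867) and 9 (LOC117842800), both chosen after their values were seen, differed by 0.98 ± 0.11 and 0.88 ± 0.10. Against control, subunits 7, 4 and 9 stood at -0.90 ± 0.12, -1.12 ± 0.11 and -1.12 ± 0.11 on the log2 scale with MTS P5D6, all called, and at 0.02 ± 0.11, -0.15 ± 0.11 and -0.25 ± 0.10 with AI2.2-A.

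Lignin, laccase and dirigent genes were higher in 55 and lower in 18 of 119 members (median 0.38). Laccases, which oxidise lignin precursors, made up much of this: 18 of 24 tested were higher and 3 lower, a grouping made after the values were seen. The laccase-15-like gene LOC117833551 had 98.7, 88.6, 85.6 and 80.9 CPM with AI2.2-A and 19.6, 23.6, 15.9 and 19.8 CPM with MTS P5D6, a log2 fold change of 2.17 ± 0.12 (edgeR adjusted p 4.63e-06). The laccase-25-like gene LOC117847470, chosen after its values were seen, went the other way with 72.4, 141, 95.3 and 170.0 CPM with AI2.2-A and 294, 349, 268 and 415 CPM with MTS P5D6. Neither gene overlapped between isolates, and control plants had 28.3 ± 2.96 CPM of the first and 363 ± 63.2 CPM of the second (SD, n = 4). Class III peroxidases, secreted enzymes that cross-link wall polymers and make or use hydrogen peroxide, were higher in 45 and lower in 7 of 80 (54 and 8 without AI2.2-A replicate 4; median 0.70). The peroxidase 72-like gene LOC117855212, named for an Arabidopsis enzyme of lignification, had 17.4, 17.3, 11.9 and 11.7 CPM with AI2.2-A and 2.41, 2.39, 2.94 and 2.59 CPM with MTS P5D6 and differed by 2.50 ± 0.18 (edgeR adjusted p 2.6e-05).

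Markers of secondary-wall-forming xylem moved with these wall groups. All 9 tested genes of 11 in that marker list were called higher with AI2.2-A, and their summed level was 218.6 to 284.7 CPM with AI2.2-A, 117.4 to 144.1 CPM with MTS P5D6 and 224.6 to 270.8 CPM in control. The list and the wall groups share members, no marker was at 0 in all 8 libraries, and the part of xylem cells in the wall results was not tested. In whole shoots, fewer cells of a type and less RNA per cell cannot be told apart.

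Most called genes of surface lipids were also higher with AI2.2-A. Lipid transfer proteins, GDSL lipases and wax genes, which export and assemble cuticle lipids among other roles, were higher in 89 and lower in 16 of 163 (median 0.58; 95 and 13 without AI2.2-A replicate 4). Leaving out MTS P5D6 replicate 4 took the lower count from 16 to 9. The GDSL esterase/lipase At2g04570-like gene (LOC117842386) had 34, 37.7, 28.2 and 32.5 CPM with AI2.2-A and 7.61, 8.37, 8.66 and 8.26 CPM with MTS P5D6, with no overlap and a log2 fold change of 2.01 ± 0.10 (edgeR adjusted p 4.63e-06).

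Most called genes of cell division were higher with AI2.2-A. Cyclins, kinesins and DNA replication genes were higher in 78 and lower in 10 of 147 (median 0.56; 75 and 13 without AI2.2-A replicate 4). Their median stood at 0.10 against control with AI2.2-A and -0.51 with MTS P5D6. Cyclin-D3-1-like (LOC117838967), of the class that starts the cycle in response to hormones and sugar, had 46.0, 47.2, 45.2 and 43.4 CPM with AI2.2-A and 24.5, 21.9, 23.2 and 24.4 CPM with MTS P5D6, with no overlap and a log2 fold change of 0.95 ± 0.07 (edgeR adjusted p 2.95e-05). The replication helicase subunit MCM4 (LOC117858658) and the division-plane kinesin KIN-12C (LOC117836189), chosen after their values were seen, differed by 1.37 ± 0.27 and 1.38 ± 0.21 (edgeR adjusted p 0.00257 and 0.000654).

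Histones split by type. Of 47 tested core and linker histones 22 were higher and 5 lower (median 0.30). Histone H3.2, packed into chromatin as DNA is copied, was higher in 6 of 6 genes with a median of 1.5, whereas histone H3.3, the replacement form used outside replication, was lower in 3 of 4 with a median of -0.38, a split noticed after the values were seen. An H3.2 gene (LOC117862385) had 17, 17.3, 17.7 and 15.3 CPM with AI2.2-A and 8.76, 6.36, 8.66 and 7.83 CPM with MTS P5D6 and a log2 fold change of 1.09 ± 0.12 (edgeR adjusted p 0.000139). An H3.3 gene (LOC117866000), chosen after its values were seen, had 30.3, 39.0, 32.2 and 41.9 CPM with AI2.2-A and 42.7, 46.1, 53.5 and 54.5 CPM with MTS P5D6 and -0.46 ± 0.12 (edgeR adjusted p 0.0111). Both pairs of groups were apart in every library. Histone genes are near-identical copies, so reads may be shared among them.

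Growth-regulating and meristem factors were higher in 18 and lower in 2 of 45 (median 0.35). Growth-regulating factors, which widen the zone of division in leaves, were higher in 4 of 8 and lower in none, and squamosa promoter-binding-like factors, which time developmental phases, in 6 of 16 and lower in none. Squamosa promoter-binding-like protein 12 (LOC117852865) had the smallest p among the higher members of the list (0.82 ± 0.12, edgeR adjusted p 0.000617). The knotted-1-like genes named here were chosen after their values were seen and went opposite ways. Knotted-1-like 7 (LOC117839754) was higher by 1.33 ± 0.27. Knotted-1-like 11 (LOC117853057) was lower, with 419, 421, 445 and 451 CPM with AI2.2-A and 576, 583, 596 and 595 CPM with MTS P5D6 and no overlap (edgeR adjusted p 0.000913). A list of 18 markers of the shoot meristem and dividing cells had 12 members higher and 2 lower with AI2.2-A, yet its summed level was lower, 751.1 to 786.4 CPM against 863.7 to 903.2 CPM with MTS P5D6, and knotted-1-like 11 made up the largest part of each sum. The part of the number of dividing cells in these results was not tested. In the cytokinin list, the response regulators of the ORR class were higher in 8 of 13 and lower in 1. The ORR2-like gene LOC117841510 had 10.1, 12.2, 10.4 and 7.01 CPM with AI2.2-A and 4.16, 4.35, 3.40 and 2.65 CPM with MTS P5D6, 1.44 ± 0.20 on the log2 scale (edgeR adjusted p 0.000398).

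**Figure D4:**
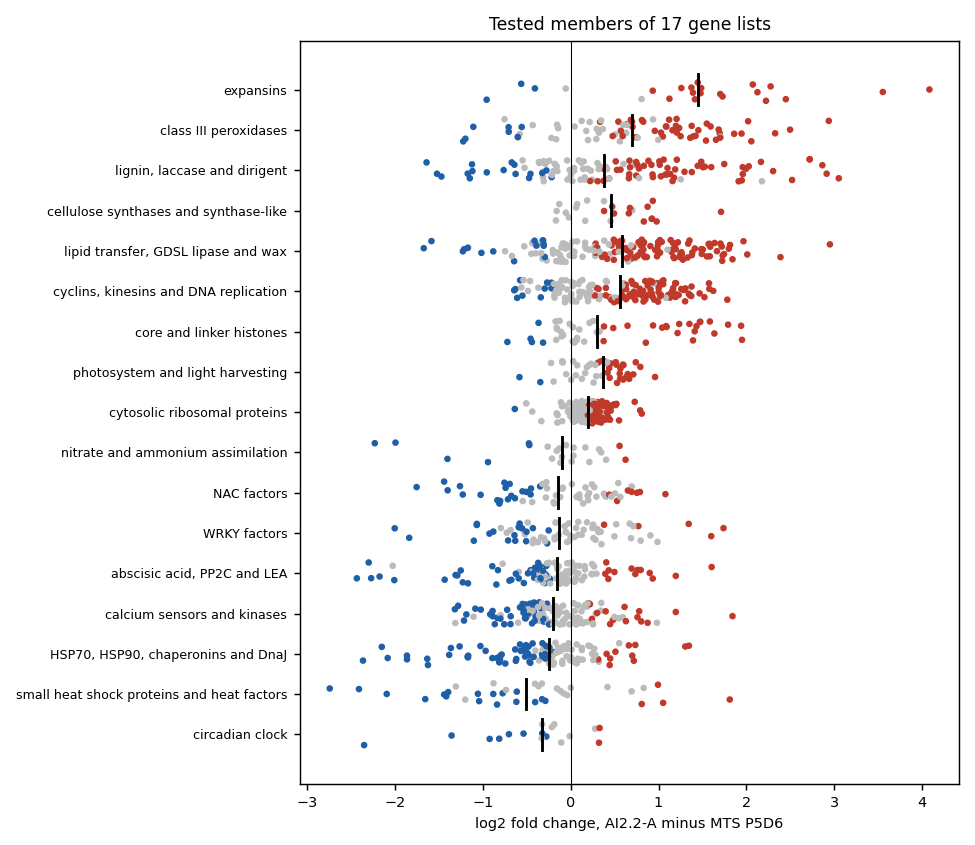
Log2 fold change (AI2.2-A minus MTS P5D6) of each tested member of 17 gene lists (points; red called higher and blue called lower with AI2.2-A, grey not called; black bars: list medians). Medians run from 1.45 for expansins to -0.51 for small heat shock proteins and heat factors, and the histones split into a group near 0 and a group above 1.

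Called cytosolic ribosomal proteins differed by little and, with 1 exception, in one direction. Of 185 tested, 79 were higher with AI2.2-A and 1 lower, with a median of only 0.20. The called member with the smallest p was 40S ribosomal protein S9-2 (LOC117836261, 0.81 ± 0.10, edgeR adjusted p 0.000258). The count depended on the setting: 131 were higher under scaling by total counts and 43 without MTS P5D6 replicate 1. Organelle ribosomal proteins were called less than the background, 16 higher and 2 lower of 88 (20.5%), and 38 were higher under total counts. The mitochondrial 39S ribosomal protein L46 (LOC117854212) had the smallest p among the higher ones (0.45 ± 0.09, edgeR adjusted p 0.00301).

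Most called light-harvesting genes were higher with AI2.2-A. Photosystem and light-harvesting genes were higher in 24 and lower in 2 of 46 (median 0.37), and the medians against control were -0.31 with AI2.2-A and -0.57 with MTS P5D6. A chlorophyll a-b binding protein (LOC117839968), part of the antenna that gathers light, had 789, 1238, 803 and 725 CPM with AI2.2-A and 441, 426, 511 and 450.3 CPM with MTS P5D6. The groups did not overlap, although AI2.2-A replicate 2 stood above the other AI2.2-A libraries, and the log2 fold change was 0.96 ± 0.16 (edgeR adjusted p 0.000941). Of the 12 chlorophyll a-b binding proteins 10 were higher and 1 lower, and their summed level was 6280 to 9799 CPM with AI2.2-A, 4623 to 5426 CPM with MTS P5D6 and 7402 to 9526 CPM in control. Protochlorophyllide reductase (LOC117849439), the light-driven step of chlorophyll synthesis, had 385 ± 34.5 CPM against 163 ± 20.7 CPM (SD, n = 4 each), a log2 fold change of 1.24 ± 0.11 (edgeR adjusted p 5.78e-05). STAY-GREEN-like (LOC117843798; STAY-GREEN starts chlorophyll breakdown), chosen after its values were seen, was lower, with a log2 fold change of -0.75 ± 0.16. C4 shuttle, Calvin cycle and photorespiration genes were called in 35.4%, below the 40.3% of all genes, with 15 higher and 8 lower. Among the higher ones, alpha carbonic anhydrase 8-like (LOC117833561) had the smallest p (log2 fold change 1.98 ± 0.20, edgeR adjusted p 8.94e-05). It had 118 ± 21.1 CPM with AI2.2-A, 29.8 ± 8.48 CPM with MTS P5D6 and 13.7 ± 2.79 CPM in control (SD, n = 4 each). Marker sums of the bundle sheath overlapped between the isolates.

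Most called low-oxygen genes were higher with AI2.2-A, and the list's median was above control with both isolates. These are genes that plants turn on when oxygen is scarce. Alcohol dehydrogenase and pyruvate decarboxylase run ethanol fermentation, and haemoglobins scavenge nitric oxide. Group VII ethylene response factors such as RAP2.3 and RAP2.12 of Arabidopsis drive the set and are removed through plant cysteine oxidases when oxygen is present. Of 25 tested members 13 were higher and 3 lower with AI2.2-A (median 0.64; 14 and 4 without AI2.2-A replicate 4). Against control the median was 1.12 for AI2.2-A and 0.76 for MTS P5D6, in comparisons that share the control libraries.

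Alcohol dehydrogenase 2 (LOC117834143) had 60.5, 61.9, 66.4 and 43.8 CPM with AI2.2-A and 13.1, 17.3, 12.8 and 10.2 CPM with MTS P5D6. The AI2.2-A libraries were all far above the MTS P5D6 libraries, with a log2 fold change of 2.12 ± 0.17 (edgeR adjusted p 3.4e-05), and control had 6.86 ± 2.17 CPM (SD, n = 4). Pyruvate decarboxylase 2 (LOC117836049) had 32.9, 41.8, 39.8 and 36.9 CPM with AI2.2-A and 13.0, 14.7, 11.2 and 8.01 CPM with MTS P5D6, without overlap, and differed by 1.69 ± 0.16 (edgeR adjusted p 7.31e-05). Alcohol dehydrogenase 1 (LOC117833817) had 29.5, 33.5, 29.0 and 44.0 CPM with AI2.2-A and 20.7, 20.2, 16.9 and 15.5 CPM with MTS P5D6. It was above control with both isolates, by 3.59 ± 0.17 with AI2.2-A and 2.69 ± 0.17 with MTS P5D6, and higher with AI2.2-A by 0.89 ± 0.14 (edgeR adjusted p 0.000909).

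Of the factors, the RAP2-3-like gene LOC117840982 had 66.5, 53.0, 57.7 and 42.7 CPM with AI2.2-A and 21.9, 21.4, 18.2 and 21.1 CPM with MTS P5D6 and the RAP2-12-like gene LOC117840983 had 26.7, 33.5, 44.2 and 28.8 CPM with AI2.2-A and 18.1, 24.3, 17.1 and 15.5 CPM with MTS P5D6. Both were higher in every AI2.2-A library, by 1.42 ± 0.13 and 0.83 ± 0.17 (edgeR adjusted p 6.9e-05 and 0.00359), and both were above control with either isolate. The 2 called haemoglobins stood on opposite sides of control. Non-symbiotic hemoglobin LOC117840678 was 37.1 ± 6.92 CPM with AI2.2-A, 15.8 ± 6.30 CPM with MTS P5D6 and 2.59 ± 0.386 CPM in control (SD, n = 4 each), whereas the non-symbiotic hemoglobin-like gene LOC117850458 was 28.2 ± 7.46, 7.60 ± 2.47 and 38.9 ± 3.96 CPM, so that control was the highest of these groups. Both were higher with AI2.2-A than with MTS P5D6 (log2 fold changes 1.23 ± 0.24 and 1.89 ± 0.23, edgeR adjusted p 0.00232 and 0.000241).

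The 3 members higher with MTS P5D6 came from the same families. An alcohol dehydrogenase (LOC117861113) had 129, 109, 159 and 159.7 CPM with AI2.2-A and 240.4, 227, 193 and 181 CPM with MTS P5D6 and an alanine aminotransferase 2-like gene (LOC117845975) 88.3, 75.8, 86.1 and 96.3 CPM with AI2.2-A and 119, 127, 116 and 108 CPM with MTS P5D6, both without overlap (log2 fold changes -0.59 ± 0.13 and -0.44 ± 0.09). Pyruvate decarboxylase 1-like (LOC117858936) differed by -0.59 ± 0.20 (edgeR adjusted p 0.0326) with overlapping libraries, and this call was lost when any of AI2.2-A replicates 1, 2 and 3 or MTS P5D6 replicates 1 and 2 was left out. Of the remaining called members with AI2.2-A higher, alcohol dehydrogenase-like 2 (LOC117838037, 1.17), alcohol dehydrogenase-like 4 (LOC117835343, 1.09) and alanine aminotransferase 2-like (LOC117835945, 1.61) did not overlap between isolates. L-lactate dehydrogenase-like (LOC117849180, 1.15) and plant cysteine oxidases 4-like (LOC117842390, 0.64) and 2-like (LOC117850613, 0.26) did overlap. The calls of both cysteine oxidases were lost when single libraries were left out.

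**Figure D5:**
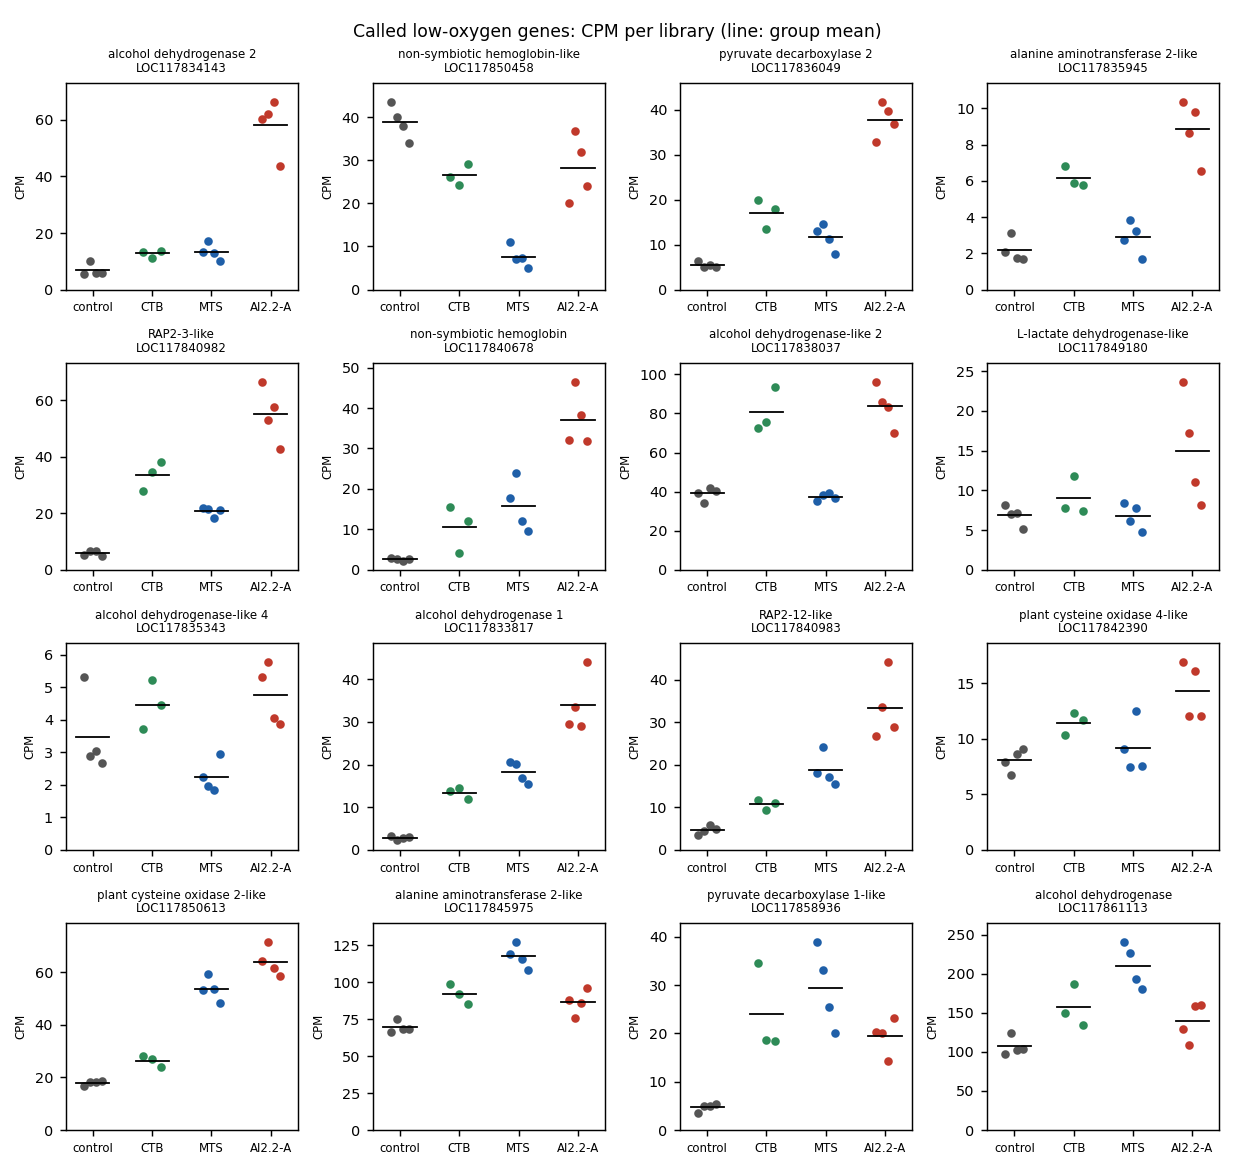
CPM per library (points; line: group mean) of the 16 called low-oxygen genes in control (n = 4), CTB P6B8 (n = 3), MTS P5D6 (n = 4) and AI2.2-A (n = 4), each panel with its own axis from 0. Alcohol dehydrogenase 2 is near 58.1 CPM with AI2.2-A, 13.4 with MTS P5D6 and 6.86 in control; the last 3 panels show the members higher with MTS P5D6.

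In carbon metabolism, single genes differed in both directions. Sucrose synthase 2 (LOC117838151, which splits sucrose in sink tissue; chosen after its values were seen) had 1033, 975, 817 and 642 CPM with AI2.2-A and 183, 265, 177 and 248 CPM with MTS P5D6. Its groups were far apart, with a log2 fold change of 1.99 ± 0.18 (edgeR adjusted p 6.6e-05) and control in between at 445 ± 55.1 CPM (SD, n = 4). Alpha-amylases, which break down starch, leaned the other way: 7 of 12 were lower with AI2.2-A and none higher (median -0.93), a grouping made after the values were seen. Alpha-amylase isozyme 3D-like (LOC117860059), also chosen after its values were seen, had 32.2, 88.7, 49.4 and 129 CPM with AI2.2-A and 474, 306, 199.7 and 300.2 CPM with MTS P5D6, without overlap, a log2 fold change of -2.10 ± 0.39 (edgeR adjusted p 0.00178). These amylase genes are close copies and may share reads.

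The sucrose:sucrose 1-fructosyltransferase-like gene (LOC117861538), which begins fructan synthesis, had 91.7, 99.2, 88.0 and 64.8 CPM with AI2.2-A and 23.1, 14.1, 14.9 and 12.9 CPM with MTS P5D6. AI2.2-A libraries were all above MTS P5D6 libraries, by 2.40 ± 0.19 on the log2 scale (edgeR adjusted p 3.4e-05), and control was higher than both at 342 ± 40.8 CPM. Over the whole starch, sucrose, fructan and trehalose list 25 members were higher and 23 lower of 88. Sugar transporters were higher in 14 and lower in 19 of 62. Polyol transporter 5-like (LOC117834117) was lower with AI2.2-A, with a log2 fold change of -0.89 ± 0.13, and the sucrose transporter SUT5-like (LOC117858716, chosen after its values were seen) was higher by 1.99 ± 0.19.

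Glycolysis genes were higher in 25 and lower in 14 of 69, and 9 lower members were among the 16 phosphoglycerate mutases and mutase-like genes, none of which was higher. Cytoplasmic fructose-bisphosphate aldolase 1-like (LOC117857168) had 282, 274, 238 and 239 CPM with AI2.2-A and 152, 150.4, 156 and 152 CPM with MTS P5D6, with no overlap, a log2 fold change of 0.76 ± 0.08 (edgeR adjusted p 0.000114). Genes of the TCA cycle and mitochondrial electron transport were higher in 29 and lower in 9 of 83 (47 higher under total counts), among them the succinate dehydrogenase flavoprotein subunit (LOC117836240, 1.12 ± 0.15, edgeR adjusted p 0.000304). The alternative oxidase (ubiquinol oxidase 1a-like, LOC117863973), a bypass of the electron chain chosen after its values were seen, was in contrast lower, at 5.15, 4.36, 3.95 and 5.47 CPM with AI2.2-A and 24.1, 13.7, 11.9 and 12.4 CPM with MTS P5D6. Its groups did not overlap, and the log2 fold change was -1.71 ± 0.23 (edgeR adjusted p 0.000337). A chloroplastic transketolase-like gene (LOC117856847) and pyruvate, phosphate dikinase 2-like (LOC117840767), both chosen after their values were seen, were also lower, with log2 fold changes of -2.0 ± 0.18 and -1.49 ± 0.14.

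Nitrogen assimilation showed isozymes moving apart. Of 23 tested members 2 were higher and 6 lower with AI2.2-A (34.8% called, under the 40.3% of all genes). Cytosolic glutamine synthetase 1-3 (LOC117838069), which fixes ammonium, had 18.1, 34.1, 18.2 and 32.7 CPM with AI2.2-A and 102, 94.3, 119 and 94.6 CPM with MTS P5D6. The MTS P5D6 libraries were all higher, with a log2 fold change of -1.99 ± 0.20 (edgeR adjusted p 0.000103), and the AI2.2-A mean was close to the control mean of 22.8 ± 7.61 CPM (SD, n = 4). NADH-glutamate synthase 2 (LOC117848374), its partner enzyme, had 2.71, 3.35, 1.87 and 4.13 CPM with AI2.2-A and 13.6, 20.5, 7.01 and 15.7 CPM with MTS P5D6 and differed by -2.23 ± 0.31 (edgeR adjusted p 0.000428), here with control at 10.9 ± 1.99 CPM, nearer to MTS P5D6.

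Glutamate dehydrogenase 2 (LOC117864129), which releases ammonium from glutamate, had 1151, 976, 1293 and 1751 CPM with AI2.2-A and 2624, 2600.0, 2374 and 2326 CPM with MTS P5D6 and was lower with AI2.2-A, with a log2 fold change of -0.94 ± 0.16 (edgeR adjusted p 0.00107) without overlap. Chloroplastic glutamine synthetase (LOC117850814), the leaf form, was higher with AI2.2-A by 0.62 ± 0.08 (edgeR adjusted p 0.000305). The remaining called members were cytosolic glutamine synthetase 1-1 (LOC117837154, -0.47), glutamate dehydrogenase (LOC117838564, -0.47), the high-affinity nitrate transporter-activating protein 2.1-like (LOC117860105, -1.40) and the root isozyme 5 of glutamine synthetase (LOC117840799, 0.56), the last of which lost its call when single libraries were left out.

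Nitrate reductase [NADH] (LOC117860413), the first enzyme of nitrate use, had 26.2, 100.3, 34.1 and 46.3 CPM with AI2.2-A and 25.3, 35.9, 33.2 and 62.2 CPM with MTS P5D6. The groups overlapped, the log2 fold change was 0.40 ± 0.39 (edgeR adjusted p 0.429), and its sign turned to -0.14 without AI2.2-A replicate 2, whose 100.3 CPM was the highest value. Both isolates were far below the control level of 853 ± 84.8 CPM. Nitrate reductase [NAD(P)H] (LOC117839581) was near 1 CPM with either isolate and was not called (edgeR adjusted p 0.852). The carotenoid cleavage dioxygenase 8 gene (LOC117866430), of strigolactone synthesis, was likewise not called, with 0.918, 1.42, 1.14 and 1.73 CPM with AI2.2-A and 0.876, 1.58, 1.08 and 1.29 CPM with MTS P5D6 and overlapping groups (log2 fold change 0.11 ± 0.27, edgeR adjusted p 0.779), against 13.9 ± 0.972 CPM in control. The sodium transporter HKT8-like (LOC117858061), also below control with both isolates, had 1.80, 3.62, 1.51 and 3.55 CPM with AI2.2-A and 0.110, 0.163, 0.413 and 0.123 CPM with MTS P5D6. These groups did not overlap, with a log2 fold change of 3.63 ± 0.47 (edgeR adjusted p 0.000275) and 9.64 ± 3.05 CPM in control.

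Water and ion transporters differed in both directions. Of 25 tested aquaporins, the water channels of plasma membrane and vacuole, 10 were higher and 5 lower. The vacuolar TIP2-3 (LOC117865991) had 5.91, 4.31, 9.67 and 3.02 CPM with AI2.2-A and 1.70, 0.598, 0.464 and 0 CPM with MTS P5D6, and TIP4-2-like (LOC117848247) had 5.07, 8.53, 6.87 and 10.3 CPM with AI2.2-A and 21.1, 23, 49.2 and 48.6 CPM with MTS P5D6, both chosen after their values were seen. The groups did not overlap in either, and the genes differed in opposite directions (3.02 ± 0.60 and -2.21 ± 0.31; edgeR adjusted p 0.00264 and 0.000428). PIP2-6-like (LOC117842370), a plasma membrane channel, was higher by 1.11 ± 0.11 (edgeR adjusted p 9.04e-05).

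Phosphate starvation genes were higher in 18 and lower in 24 of 81. An SPX domain membrane protein (LOC117865047) was lower with AI2.2-A, with a log2 fold change of -0.97 ± 0.11. The phosphate exporter PHO1-2 (LOC117841500, chosen after its values were seen) was higher and had 33.4, 35.8, 40.0 and 21.2 CPM with AI2.2-A and 9.86, 8.75, 6.60 and 3.02 CPM with MTS P5D6. The PHO1-2 groups did not overlap, and it differed by 2.2 ± 0.29 (edgeR adjusted p 0.000325). The NRT1/PTR family of nitrate and peptide transporters was higher in 20 and lower in 10 of 61, with family 2.7-like (LOC117850964) higher by 2.13 ± 0.22. Iron and metal genes (34 higher, 27 lower of 113), potassium, sodium and proton transporters (14 and 13 of 54) and sulfur genes (9 and 4 of 30) went both ways. Their leading members were a heavy metal-associated isoprenylated protein 37 (LOC117858528, 1.00 ± 0.11), putative potassium transporter 8 (LOC117838251, 0.77 ± 0.10) and a plastid cysteine synthase-like gene (LOC117851469, 1.02 ± 0.12).

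Most called heat shock and chaperone genes were higher with MTS P5D6, though many members were not called. Of 36 tested small heat shock proteins and heat stress factors 17 were lower with AI2.2-A and 4 higher (14 and 4 without AI2.2-A replicate 4; median -0.51). Of 109 HSP70, HSP90, chaperonin and DnaJ genes 49 were lower and 11 higher (median -0.24). The medians against control were 0.50 with AI2.2-A and 0.98 with MTS P5D6 for the first list. Heat shock 70 kDa protein 4 (LOC117848470), a cytosolic chaperone, had 5.67, 6.33, 5.83 and 4.85 CPM with AI2.2-A and 23.8, 23.6, 32.6 and 20.5 CPM with MTS P5D6. A heat shock 70 kDa protein 4-like gene (LOC117840145), chosen after its values were seen, had 36.3, 74.4, 56.6 and 57.1 CPM with AI2.2-A and 218, 179, 240.2 and 178 CPM with MTS P5D6. Both were apart in every library, with log2 fold changes of -2.15 ± 0.15 and -1.86 ± 0.19 (edgeR adjusted p 2.38e-05 and 9.42e-05), and control had 4.15 ± 1.26 CPM and 24.5 ± 3.25 CPM (SD, n = 4). The heat stress factor A-3-like gene (LOC117834166), whose Arabidopsis counterpart acts in heat and drought, had 4.51, 4.36, 5.77 and 4.85 CPM with AI2.2-A and 10.2, 13.1, 14.5 and 14.1 CPM with MTS P5D6 and a log2 fold change of -1.42 ± 0.15 (edgeR adjusted p 0.000108).

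Abscisic acid genes, phosphatases 2C and late embryogenesis abundant proteins were lower with AI2.2-A in 34 and higher in 13 of 105 (median -0.15). Abscisic stress-ripening protein 2-like (LOC117859126) had 3.15, 3.99, 3.28 and 4.89 CPM with AI2.2-A and 15.2, 16.6, 16.8 and 12.9 CPM with MTS P5D6, with no overlap, a log2 fold change of -2.01 ± 0.16 (edgeR adjusted p 3.4e-05). The 7 tested stress-ripening proteins were not alike, with 2 lower and 1 higher. Dehydrin COR410-like (LOC117834274), which protects membranes in dry cells, and abscisic acid 8'-hydroxylase 3-like (LOC117842728), which degrades the hormone, were both chosen after their values were seen and were lower with AI2.2-A, with log2 fold changes of -1.31 ± 0.18 and -2.27 ± 0.25 (edgeR adjusted p 0.000345 and 0.000133).

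Among transcription factors, NAC factors were lower with AI2.2-A in 20 and higher in 7 of 60. WRKY factors were lower in 19 and higher in 5 of 72, and AP2/ERF and DREB factors in 19 and 10 of 85. For WRKY and AP2/ERF factors the share called (33.3% and 34.1%) was below the 40.3% of all genes, though most calls went one way. NAC domain-containing protein 75-like (LOC117849534) had 17.2, 31.3, 15.1 and 29.4 CPM with AI2.2-A and 79.6, 78.7, 81.9 and 73.0 CPM with MTS P5D6, with all MTS P5D6 libraries above all AI2.2-A libraries (log2 fold change -1.75 ± 0.20, edgeR adjusted p 0.000176). WRKY factor 75 (LOC117866608), in Arabidopsis linked to phosphate shortage and leaf ageing, was lower, with a log2 fold change of -1.07 ± 0.14 (edgeR adjusted p 0.000264), and ERF114-like (LOC117860020) at -0.99 ± 0.11 (edgeR adjusted p 0.000159). A probable WRKY factor 12 (LOC117854606), chosen after its values were seen, was higher with AI2.2-A by 1.74 ± 0.35 (edgeR adjusted p 0.00295).

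Calcium sensors and kinases, which read stress and immune signals, were lower with AI2.2-A in 43 and higher in 15 of 139 (median -0.20), led by a calcium-binding protein CBP-like gene (LOC117833428, -0.83 ± 0.11, edgeR adjusted p 0.000277). NLR immune receptors, which detect pathogen effectors inside the cell, were called less than the background (27.3% against 40.3%), with 53 higher and 10 lower of 231, and 17 lower without AI2.2-A replicate 4. A RGA5-like receptor (LOC117833354) was higher by 0.74 ± 0.09 (edgeR adjusted p 0.00018). Chitinases and glucanases (21 higher, 14 lower of 68) and pathogenesis-related, thaumatin and defensin genes (9 and 9 of 47) went both ways. The higher chitinase and glucanase count was 10 without AI2.2-A replicate 1 and 13 without MTS P5D6 replicate 2. Among these higher genes, glucan endo-1,3-beta-glucosidase 13-like (LOC117855578) had the smallest p (1.48 ± 0.23, edgeR adjusted p 0.000654). The defensin-like protein CAL1 (LOC117863901), which in rice binds cadmium, had 109, 114, 92.2 and 70.6 CPM with AI2.2-A and 35.6, 38, 32.4 and 37.7 CPM with MTS P5D6 and was higher without overlap (log2 fold change 1.43 ± 0.14, edgeR adjusted p 8.2e-05).

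Receptor kinases and hormone genes were split. Cysteine-rich and wall-associated kinases were higher in 19 and lower in 12 of 98, and lectin-domain kinases in 12 and 13 of 77, 31.6% and 32.5% called. Without MTS P5D6 replicate 2 the lower count of the first was 20 and the higher count of the second 7, and the latter was 6 without AI2.2-A replicate 1 or replicate 3. Cysteine-rich receptor-like kinase 10 (LOC117861578) was higher by 1.17 ± 0.15, and a G-type lectin kinase SD2-5 (LOC117854608) lower, with a log2 fold change of -1.43 ± 0.15. Auxin genes were higher in 35 and lower in 20 of 110, with IAA13-like (LOC117837414), a repressor of auxin response, higher by 0.83 ± 0.10. The list of jasmonate and TIFY genes, which includes 9S-lipoxygenases matched by name, was higher in 5 and lower in 10 of 35. In it 2 of these lipoxygenases went opposite ways, linoleate 9S-lipoxygenase 4 (LOC117837920) at -0.65 ± 0.09 and 9S-lipoxygenase 3 (LOC117836611, chosen after its values were seen) at 1.40 ± 0.17. Whether either takes part in jasmonate synthesis was not tested. Ethylene genes (5 higher, 6 lower of 31) and gibberellin, brassinosteroid and strigolactone genes (6 and 5 of 26) showed no lean in their counts. Their median log2 fold changes were 0.01 and 0.30. Gibberellin-regulated protein 4-like (LOC117851358) was higher by 1.17 ± 0.11, and an aminocyclopropane carboxylate oxidase homolog 1-like gene (LOC117864422) lower, with a log2 fold change of -0.99 ± 0.12.

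Redox and secondary metabolism gave smaller groups. Glutaredoxins and thioredoxins were lower with AI2.2-A in 19 and higher in 9 of 74, with the plastid thioredoxin-like 3-1 (LOC117839841) at 29.2, 32.6, 28.9 and 32.9 CPM with AI2.2-A and 67.3, 71.9, 70.7 and 62.4 CPM with MTS P5D6. Its groups were well apart, with a log2 fold change of -1.14 ± 0.08 (edgeR adjusted p 2.24e-05). Cytosolic monodehydroascorbate reductase 4 (LOC117859493), which regenerates ascorbate, was lower, with a log2 fold change of -1.01 ± 0.09 within an antioxidant list of 12 higher and 14 lower of 40. Glutathione S-transferases were 13 higher and 11 lower of 61 (8 higher without AI2.2-A replicate 3), and GSTU6 (LOC117854883) was higher by 1.55 ± 0.16. Flavonoid genes were higher in 20 and lower in 11 of 54. A flavonoid O-methyltransferase-like gene (LOC117833316) had 113, 77.0, 101 and 71.8 CPM with AI2.2-A and 15.8, 19.6, 16.8 and 13.7 CPM with MTS P5D6, without overlap, a log2 fold change of 2.47 ± 0.16 (edgeR adjusted p 2.24e-05). Terpenoid and benzoxazinoid genes (9 higher, 6 lower of 41) and cytochromes P450 (24 and 28 of 109) showed no clear lean in their counts. Their median log2 fold changes were 0.42 and -0.08. The DIMBOA glucosyltransferase BX9-like gene (LOC117842762) was higher by 2.03 ± 0.32 and P450 90A4-like (LOC117866170) lower, with a log2 fold change of -0.66 ± 0.08.

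Most called clock genes were lower with AI2.2-A, and 7 of the 17 tested were not called. The plant clock is a loop of morning factors such as CCA1 and evening factors such as PCL1 (LUX), PRR1 (TOC1) and GIGANTEA, so levels depend on the hour of harvest, which the labels do not give. Of 17 tested genes 8 were lower and 2 higher (10 and 2 without AI2.2-A replicate 4; median -0.32). The PCL1-like gene LOC117855098 had 0.678, 0.780, 0.988 and 0.960 CPM with AI2.2-A and 3.89, 3.48, 4.74 and 5.24 CPM with MTS P5D6, far apart, with a log2 fold change of -2.35 ± 0.21 (edgeR adjusted p 6.9e-05). The adagio-like protein 3 gene (LOC117866417), a blue-light sensor that marks clock proteins for removal, had 9.70, 9.22, 14.5 and 14.5 CPM with AI2.2-A and 26.7, 29.9, 30.9 and 34.8 CPM with MTS P5D6 and differed by -1.35 ± 0.16 (edgeR adjusted p 0.00018).

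Smaller differences in the same direction were PRR1 (LOC117862454, -0.92 ± 0.15), PRR95 (LOC117844604, -0.81 ± 0.14), APRR3 (LOC117833043, -0.70 ± 0.09), GIGANTEA (LOC117857839, -0.54 ± 0.16), a REVEILLE 6-like gene (LOC117853788, -0.32 ± 0.08) and adagio-like protein 1 (LOC117852630, -0.28 ± 0.07). CCA1 (LOC117861503) was the other way, with 2317, 2332, 2126 and 2250.2 CPM with AI2.2-A and 1917, 1724, 1645 and 1899 CPM with MTS P5D6, non-overlapping groups and a log2 fold change of 0.33 ± 0.09 (edgeR adjusted p 0.014), as was a second REVEILLE 6-like gene (LOC117866937, 0.32 ± 0.07). The CCA1 call was lost without MTS P5D6 replicate 3 and that of GIGANTEA without AI2.2-A replicate 1. The sources used here do not give the hour of harvest of each library, and for these genes harvest hour and isolate cannot be told apart.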

How the data were processed

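RNA from wild-type shoots was sequenced from libraries made, per the labels' protocols, with a stranded total RNA kit. The authors deposited raw counts per gene for 28032 genes and 15 libraries, with no normalization. The authors' deposited table of this comparison gives, per gene, a mean normalized signal, a log2 fold change, a test score, and a p-value that equals its adjusted p-value in 100% of lines; only its calls and signs were used. Tools listed in the submitters' processing notes are Trimmomatic, FastQC, featureCounts, HISAT2 and DESeq2 (1.6.3), in no stated order. Genome build, annotation and strand setting: not given in the sources used here. Counts may therefore be shared between a gene and its antisense partner, an overlapping gene or a near-identical copy. The other 5 deposited comparison tables were not used.

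The 8 libraries were fitted alone in edgeR 4.0.16 (R 4.3.3; TMM scaling, filterByExpr, quasi-likelihood F test, two-sided). The call rule was an adjusted p (Benjamini-Hochberg) under 0.05, whatever the fold. Standard errors are the log2 fold change divided by the square root of F. CPM are TMM-scaled over all 15 libraries without a prior count; principal components used log2 CPM with a prior count of 2. Differences from control came from an edgeR fit of all 15 libraries, those of CTB P6B8 included. No 2 libraries of a group were copies (chi-square per degree of freedom 7.34 to 21.4 over 12 pairs). The p-values set the difference between isolates against the spread between libraries of the same isolate. How many plates went into a library was not stated, so what this spread covers is not known.

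The 51 lists were made by patterns on gene descriptions, present for 23214 genes in the authors' deposited tables; 26304 identifiers were found in a table of the assembly Setaria_viridis_v4.0. The comparison, the members and the lists were chosen with earlier results of these data known, and some patterns were corrected after reading the names they matched. Named genes were the 10 called genes in each direction that differed most, given a mean log2 CPM of at least 1, no overlap and an informative description; the most significant called member, in the direction with more calls, of each list with at least 5 tested; every called low-oxygen, nitrogen assimilation and clock gene; and 5 genes of nitrate reduction, strigolactone, sodium and fructan. Others were chosen after their values were seen. Smaller groupings by name within a list, such as growth-regulating factors, response regulators or phosphoglycerate mutases, were not part of the plan. On simulated data of this comparison (19434 genes) 34.3%, 80.6% and 100% of genes changed by 0.5, 1 and 2 on the log2 scale were called, and 0.0312% of unchanged genes. Only 67, 67 and 66 genes were changed by these amounts and 19234 were not. Far more of the real genes were called, so the adjusted p was stricter in the simulation and its rates do not carry over. Alternatives used DESeq2 1.42.0 and limma 3.58.1. Figures were drawn with Python and matplotlib 3.10.9. No sequences were used here.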

Additional observations from a re-analysis of the deposited data

Results flagged for a closer look

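Within a group of 4 libraries, a value was singled out where its gap to the nearest library made up more of the group's range than Dixon's 95% critical value allows. Chance does this in about 1 in 20 groups, and 12 of 310 groups examined met it, so these are values to check by eye rather than a pattern. With AI2.2-A, the beta-glucosidase 29-like gene (LOC117842554) was 30.4 CPM in replicate 3 against 10.9 to 14.2 in the others. The heavy metal-associated protein 37 gene (LOC117858528) was 18.8 CPM in replicate 2 against 16.0 to 16.3, and the chlorophyll a-b binding protein gene LOC117839968 was 1238 CPM in replicate 2 against 725 to 803. Adagio-like protein 1 (LOC117852630) was 79.5 CPM in replicate 4 against 72.1 to 72.8, and REVEILLE 6-like (LOC117866937) 43.1 CPM in replicate 3 against 47.6 to 47.9.

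With MTS P5D6, the beta-glucosidase 29-like gene (LOC117842554) was 4.44 CPM in replicate 1 against 0.616 to 0.978, and the group 3 late embryogenesis abundant protein-like gene (LOC117847822) was 15.7 CPM in replicate 3 against 2.72 to 3.78. Polyol transporter 5-like (LOC117834117) was 47.3 CPM in replicate 2 against 69.2 to 73.0, and the alternative oxidase gene (LOC117863973) was 24.1 CPM in replicate 1 against 11.9 to 13.7. Genes chosen after their values were seen and not described above were the centromeric histone CSE4 (LOC117864699), with 4.87 CPM in replicate 4 against 2.61 to 2.74, a chloroplastic small heat shock protein (LOC117839669), with 3.2 CPM in replicate 3 against 0.616 to 0.706, and the antenna protein CP24 (LOC117865469), with 108.5 CPM in replicate 2 against 121.4 to 123.4.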

How the results depend on the processing

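The 4 counts of genes (higher and lower, with and without the 2-fold minimum) stayed within 1.5 times the reported values under 17 of 18 alternatives, the exception being an adjusted p under 0.01, with 2476 genes higher and 2222 lower. No gene called both in the main test and in an alternative changed sign. Leaving out 1 library gave 6278 (AI2.2-A replicate 1) to 8109 (AI2.2-A replicate 4) calls. The replicate block gave 7206 calls, 6920 of them shared. Replicate numbers, taken from the sample titles, match across groups only by label. The deposited count columns of MTS P5D6 skip number 3, so replicates 3 and 4 are numbered differently there. No block by column number was fitted. Deviations of libraries with the same title number correlated at 0.0848, -0.0253, 0.000265 and 0.0739 across genes, so the numbers were not taken to pair the samples. Of all main calls, 78.1% (without AI2.2-A replicate 1) to 92.5% (without AI2.2-A replicate 4) were kept with 1 library left out. At an adjusted p under 0.01, 59.4% were kept. Of 149 called genes examined by name, 9 lost the call in at least 1 alternative, 3 of them only at an adjusted p under 0.01: L-lactate dehydrogenase-like, an H3.3 gene and a chloroplastic small heat shock protein. Many of the 149 were named for a large difference or a small p, or after their values were seen, which favours keeping the call. Sign turned only in genes not called: nitrate reductase [NADH] (LOC117860413) to -0.046 with limma-voom and between -0.14 and 0.71 with 1 library left out, nitrate reductase [NAD(P)H] (LOC117839581) between -0.67 and 0.57 (0.00 without AI2.2-A replicate 3 and 0.02 without replicate 4), and carotenoid cleavage dioxygenase 8 homolog A, chloroplastic-like (LOC117866430) between -0.071 and 0.25 (-0.03 without MTS P5D6 replicate 1). Of the list counts, 140 of 1836 moved by over 1.5 times. The cause was not tested. The promoter motif search was not run. Simulated differences of 0.5 on the log2 scale were called in 34.3% of cases. Far fewer genes differed in the simulation than were called here, so this share is not the detection rate in these data. Small differences may still go uncalled at this depth and number of libraries.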

Other observations

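Shoots grown beside CTB P6B8, which took no part in the test, had a mean level between those of AI2.2-A and MTS P5D6 for 6124 of the 7909 called genes (77.4%) and for each of the 20 genes that differed most among those with an informative description and a mean log2 CPM of 1 or more. Of the remaining called genes, CTB P6B8 was above both in 1109 and below both in 676. These genes were chosen because the other isolates differ, which by itself favours an intermediate level in any further group, and no test was made. The RAFTIN 1A-like gene LOC117836289 shows the order, with 36.6 ± 4.46 CPM with AI2.2-A, 21.4 ± 3.33 CPM with CTB P6B8 (n = 3) and 4.04 ± 0.958 CPM with MTS P5D6 (SD, n = 4).

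The mock control lay between the isolates for 4022 called genes (50.9%), below both for 2043 and above both for 1844. It was below both for 1313 of the genes higher with MTS P5D6 and 730 of those higher with AI2.2-A. Among those 20 genes, control was between the isolates for 9 of the 10 genes higher with AI2.2-A and below both for all 10 genes higher with MTS P5D6. Abscisic stress-ripening protein 1-like (LOC117859125), at 2.66 ± 0.315 CPM in control, 27.8 ± 9.15 CPM with CTB P6B8 and 39.8 ± 7.36 CPM with MTS P5D6 (SD), is of the second kind. These ranks compare means only. For LOC117857321, LOC117843102, LOC117847822 and LOC117835063, all higher with MTS P5D6, the AI2.2-A difference from control was not called (edgeR adjusted p 0.168, 0.210, 0.169 and 0.0617).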
